A study of Rattus norvegicus with 31 samples.

Results

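The glucocorticoid receptor gene *Nr3c1* and 6 genes of its pathway were followed through the liver and the white (WAT) and brown (BAT) adipose tissue of rats fed diets that differed in the ratio of carbohydrate to fat. The 6 genes were *Hsd11b1*, *Fkbp5*, *Tsc22d3*, *Dusp1*, *Sgk1* and *Tat*. Members were the probe sets annotated to 1 of these genes and to no other, which gave 10 probe sets of 31042 on the array and 7 genes of 14217. *Nr3c1*, *Dusp1* and *Fkbp5* each had a pair of probe sets and the other genes had a single one. When these genes were chosen, lower values of *Nr3c1* and *Dusp1* in the livers of the H-group were already known, so the liver L vs H values are given as a description, and *Nr3c1* and *Dusp1* carry no p in any liver comparison.

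Male Wistar rats, 3 weeks old at the outset, had a week of acclimation on chow and then a week of the diets ad libitum. The diets continued for 9 weeks, and the rats were dissected after 17 h without food. Carbohydrate and fat supplied 65 and 15% of the energy in the L-group, 60 and 20% in the M-group, and 35 and 45% in the H-group. During the 9 weeks the L-group ate ad libitum while the M- and H-groups were held to its energy intake. Soybean oil was the ingredient that raised the fat. One array was hybridized for each rat and tissue: the liver of 5 L, 4 M and 4 H rats, and the WAT and BAT of the same 5 L and 4 H rats. A rat of the M-group and a rat of the H-group whose food intake was low had been left out by the authors and were not analysed here.

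Corticosterone, the main glucocorticoid of the rat, crosses the cell membrane and binds a receptor held ready by a complex of heat shock proteins and cochaperones. The bound receptor moves to the nucleus, where it switches on genes that restrain its own action and inflammatory signalling and, in the liver, genes of amino acid breakdown and glucose production. In the liver and adipose tissue the supply of the active hormone also depends on an enzyme that regenerates it inside the cell. Secretion of the hormone follows the clock and responds to fasting and to handling.

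Values are log2 expression as deposited, made with another method in each tissue, so that levels were compared between diets within a tissue and never between tissues. A leading marker of each tissue was bright: albumin (*Alb*) lay between 14.28 and 14.30 in the 13 livers, adiponectin (*Adipoq*) between 13.2 and 13.4 in WAT, and the uncoupling protein *Ucp1* between 14.4 and 14.9 in BAT, while *Ucp1* was listed at 1 value, 6.46, on every WAT array. Not every marker followed its label. *Alb* also lay between 12.6 and 13.4 in BAT and between 7.83 and 12.7 in WAT. The other 5 measured hepatocyte markers were flat in WAT, and 4 of them were at the floor in BAT. Of the brown adipocyte markers in BAT, *Cidea* lay between 14.5 and 14.8, *Elovl3* was at the floor of 2.29 and *Cox7a1* lay between 2.98 and 3.57. The part of liver RNA in the adipose values was not tested. The mean of the 11 skeletal muscle markers in BAT was between 3.30 and 3.33 in the L-group and 3.32 in H16, 3.35 in H12, 5.93 in H13 and 7.11 in H15. Of these markers *Myh1* did not follow its label. It lay between 13.3 and 13.9 on all BAT arrays, between 9.86 and 10.5 in the liver and between 10.6 and 11.4 in WAT. The medians of the other markers in BAT lay between 2.29 and 2.34. In WAT 25762 probe sets held 1 value on all arrays to within 1e-06, and in BAT 13221 lay within 0.1 of the lowest value on all arrays. Such probe sets can show no difference, and *Tat* was among them in both adipose tissues. In these bulk samples, fewer cells of a type and less RNA per cell cannot be told apart.

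No member passed limma's adjusted p of 0.05 in any comparison in which it was tested. In liver L vs M, liver M vs H, WAT and BAT the diet groups overlapped for every member on every probe set, and the sizes and their errors follow by the role of the gene. A second pattern did not involve the diets. Relative to their diet group and on the brighter probe sets, the same rats tended to be high in *Dusp1* in the liver and WAT. The same held for *Fkbp5* and for *Tsc22d3* in WAT and BAT. The unadjusted p-values did not pass an adjustment over all genes.

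Rank products, the test of the study's methods, was run beside limma at a false discovery rate (FDR) under 0.05. On simulated data most of its calls for L vs H in each tissue were false, unlike those of limma, so that a call by rank products alone is weak. Few probe sets were changed in these data and each varied on its own, and the share of false calls depends on such settings. The simulated calls were not counted for liver L vs M or liver M vs H. Counted over the brighter probe sets of the 7 genes, it called none in liver L vs M, where 0.457% of genes were called in either direction, and limma called none of the 5 genes tested, where 0.00703% of genes were called. In liver M vs H limma again called none of the 5 (0.0141% of genes) and rank products listed *Dusp1* as lower (0.373% of genes), which is a description for the reason given above. In liver L vs H rank products listed none, against 1.66% of genes. Limma called none of the 6 that varied in WAT (0.0703% of genes) or in BAT (0% of genes). At an unadjusted limma p under 0.05 the tested members counted 0 of 5 in liver L vs M and in liver M vs H. They counted 0 of 6 in WAT and in BAT. In the same order 3.69, 6.39, 6.44 and 6.56% of genes reached it. *Nr3c1* and *Dusp1* were left out of the liver counts for the reason given above, so these are not counts of all members. The 17 probe sets that limma called in WAT differed by less than 1e-05, and none was called among the 5280 probe sets that vary. Shares of genes in the diet comparisons, here and below, are over 14217 genes, each on its brightest probe set. In WAT and BAT they include genes that were flat or at the floor.

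The receptor is described first. On its brighter probe set (1368221_at) *Nr3c1* in the liver was 9.53, 9.77, 9.63, 9.92 and 9.55 in the L-group. It was 9.41, 9.62, 9.78 and 9.98 in the M-group and 9.23, 9.45, 9.49 and 9.56 in the H-group. The H livers lay at the low end, with H12 lowest of all 13, and the L and H ranges met between 9.53 and 9.56. The means were 9.68 ± 0.16 (SD, n = 5), 9.70 ± 0.24 (n = 4) and 9.43 ± 0.15 (n = 4), so that M and L did not differ beyond their spread and H was -0.25 (SE 0.11) from L on the log2 scale, a 1.19-fold difference.

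The dimmer probe set of the receptor (1368222_at) gave 4.83, 5.13, 4.95, 5.09 and 4.83 in the L livers, 4.75, 4.83, 4.83 and 5.16 in the M livers, and 4.54, 4.47, 4.22 and 4.75 in the H livers. Here all 4 H livers lay below all 5 L livers, as was the case for 1.4% of genes on their brightest probe sets. These values lay near the median of all probe sets, which was 4.67 to 4.70 over the liver arrays. L1, L5, M8 and M9 held 1 and the same value. The difference of H from L was -0.47 (SE 0.11, 1.38-fold). As a description, rank products listed this probe set as lower, as it did 0.767% of genes, while it did not list the brighter one, and the dimmer one was not listed when L2, L4 or H15 was left out. Across the 13 livers both probe sets followed each other with r = 0.76, given as a description.

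In WAT the receptor varied little. *Nr3c1* was 10.04, 10.07, 10.11, 10.08 and 10.17 in the L-group and 10.12, 10.16, 10.16 and 10.23 in the H-group, a difference of 0.07 (SE 0.03) with an adjusted p of 0.805 by limma. In BAT it was 7.87, 8.01, 7.64, 7.65 and 7.88 in the L-group and 8.40, 7.88, 7.88 and 7.85 in the H-group. The H value of 8.40 came from H12 alone, the other 3 H rats lay within the L range, and the difference was 0.19 (SE 0.14, adjusted p = 0.970 by limma). The dimmer probe set held 1 value in WAT and stayed between 2.63 and 2.7 in BAT, near the floor of 2.29.

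*Hsd11b1* encodes the enzyme that turns the inactive 11-keto steroid back into the active hormone inside the cell. In the liver it was 12.44, 12.54, 11.87, 12.15 and 12.44 in the L-group, 12.32, 12.01, 12.36 and 12.41 in the M-group and 12.38, 12.30, 12.64 and 12.31 in the H-group. The diet means lay within 0.14 of each other, with SDs of 0.16 to 0.28. In WAT the H-group differed from the L-group by -0.19 (SE 0.19) and in BAT by -0.15 (SE 0.23), with ranges of 9.68 to 10.26 against 9.32 to 10.13 and of 6.29 to 6.95 against 6.14 to 7.10. Neither difference exceeded its error, and the one in BAT turned to 0.16 with the skeletal muscle markers as a covariate.

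**Figure D1:**
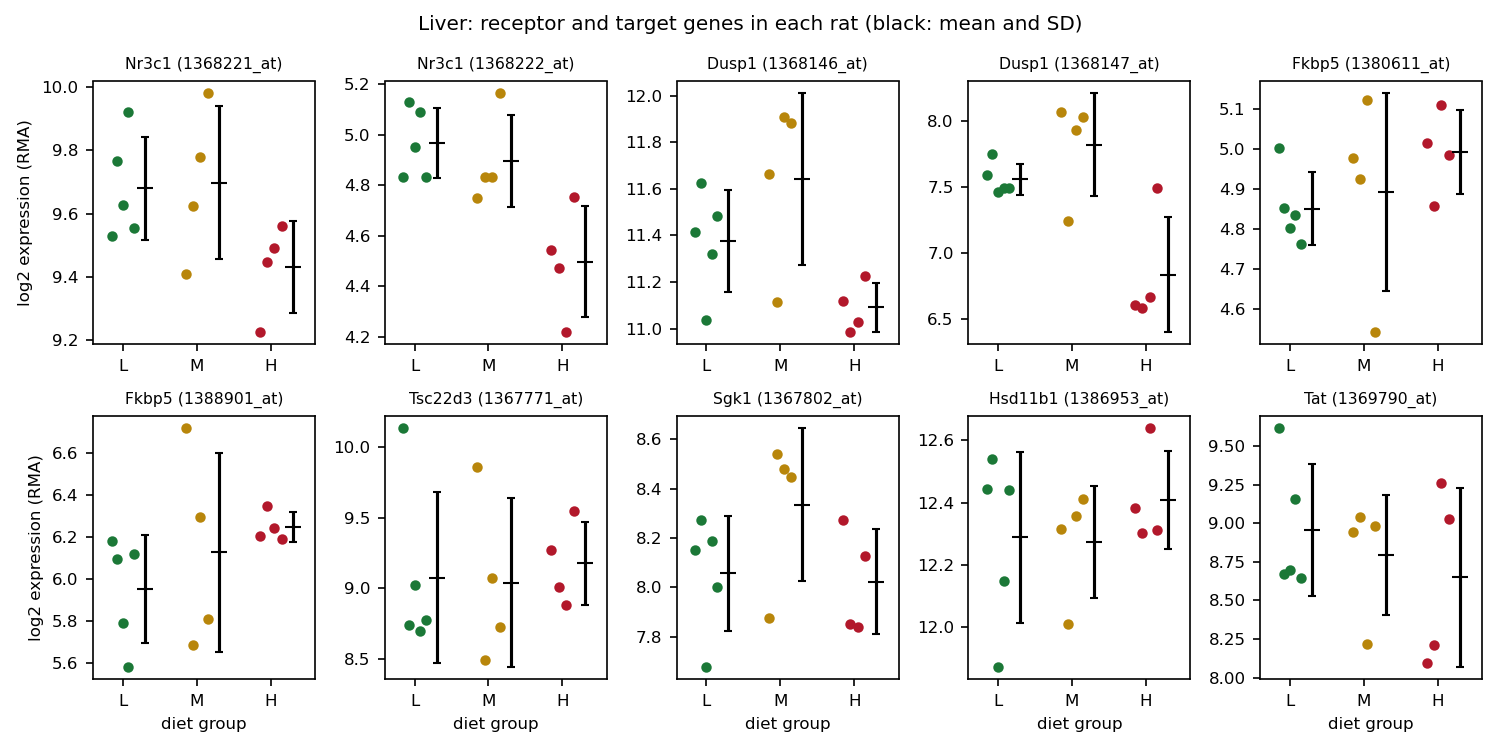
Log2 expression (RMA) of the 10 probe sets in the liver, 1 panel for each probe set and 1 point for each rat, by diet group (L, M and H), with the mean and SD in black and the y axes cut to the range of each gene. The H livers lie low on both *Nr3c1* and both *Dusp1* probe sets, and on 1368147_at the fourth H liver, H16 at 7.49, lies with the L-group.

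Among the induced genes, *Dusp1* encodes a phosphatase that switches off MAP kinases. On its brighter probe set (1368146_at) it was 11.41, 11.62, 11.04, 11.32 and 11.48 in the L livers, 11.66, 11.12, 11.91 and 11.88 in the M livers, and 11.12, 10.99, 11.03 and 11.23 in the H livers. The M livers included both the highest value and, with M8, one inside the H range. The means were 11.4 ± 0.22, 11.6 ± 0.37 and 11.1 ± 0.11, so that the order ran from M over L to H, with differences of 0.27 (SE 0.15) for M from L, -0.55 (SE 0.16) for H from M and -0.28 (SE 0.15) for H from L.

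The dimmer *Dusp1* probe set (1368147_at) gave 7.59, 7.76, 7.46, 7.49 and 7.49 in the L livers, 8.07, 7.24, 7.94 and 8.04 in the M livers, and 6.61, 6.59, 6.67 and 7.49 in the H livers. H12, H13 and H15 lay below every other liver, and H16 lay at the level of the L-group. L4, L5 and H16 held the same value. The differences were -0.72 (SE 0.19, 1.65-fold) from L and -0.98 (SE 0.20, 1.98-fold) from M. As a description, rank products listed this probe set as lower in H than in L and than in M, with all rats and when any rat of the groups compared was left out. The brighter probe set was listed as lower against M alone, and not without M6, M9, M10, H13 or H15.

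In WAT *Dusp1* spread over more than 1 log2 unit within each diet. On the brighter probe set the L rats gave 11.87, 12.08, 10.35, 10.93 and 11.65 and the H rats 11.34, 10.53, 11.04 and 11.73, a difference of -0.22 (SE 0.42, adjusted p = 0.989 by limma). The H values all lay inside the L range. Rank products called the dimmer probe set lower in H at an FDR of 0.0167, where 1.41% of genes were called lower, with a difference of -0.35 (SE 0.40, adjusted p = 0.865 by limma), and not without L1, L2, L5 or H13. In BAT the L rats gave 9.64, 9.24, 9.09, 8.91 and 8.58 and the H rats 11.75, 9.59, 9.20 and 7.26, so that the H-group held both the highest and the lowest of the 9 values. Its SD was 1.84 against 0.39 in the L-group, and the difference of 0.36 (SE 0.82, adjusted p = 1 by limma) turned to -0.41 without H12. The dimmer probe set in BAT differed by 0.52 (SE 0.69), with H12 again the highest and H16 the lowest.

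The start of *Dusp1* is shown because this gene, on its brighter probe set, had the closest agreement between liver and WAT among the members. The 250 bases before the start site, from RefSeq on build GRCr8 at chr10:17184603-17184852 on the + strand, are given below from 5′ to 3′, with capitals marking the cyclic AMP response element TGACGTCA at 124 bases before the start and its shortened form TGACGTC at 172 bases before it.
Dusp1: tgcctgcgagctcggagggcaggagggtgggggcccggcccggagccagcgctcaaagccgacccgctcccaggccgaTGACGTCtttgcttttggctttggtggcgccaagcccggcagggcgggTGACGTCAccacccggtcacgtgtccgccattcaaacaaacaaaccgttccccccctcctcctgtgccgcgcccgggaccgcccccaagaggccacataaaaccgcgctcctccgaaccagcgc
TGACGTCA, searched on both strands, was found in 1.83% of 33469 rat promoter windows that reach 50 bases past the start, and TGACGTC, which also matches inside it, in 3.22%. Promoter windows were at hand for 6 of the 7 genes, and 1, *Dusp1*, held either motif. The glucocorticoid half-site AGAACA was in 0 of the 11 windows of these 6 genes and in 20.7% of all windows. The windows begin 250 bases before the start. Sites farther away or inside the gene were not searched, so the count does not show that these genes lack receptor sites.

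*Fkbp5* encodes a cochaperone that lowers the affinity of the receptor for its hormone and is itself induced by the receptor. On its brighter probe set (1388901_at) it was 6.18, 6.09, 5.79, 5.58 and 6.12 in the L livers and 6.72, 5.68, 6.29 and 5.81 in the M livers. The H livers gave 6.20, 6.35, 6.24 and 6.19, a narrow band just above the L-group, and this was the 1 member of 7 whose L and H livers did not overlap in the higher direction, where 2.04% of all genes did the same. The difference of H from L was 0.29 (SE 0.18), a 1.23-fold difference, and the nearest rats, L1 and H16, were 6.18 and 6.19. On the dimmer probe set (1380611_at) the groups overlapped, with 4.76 to 5.0 in the L livers, 4.54 to 5.12 in the M livers and 4.86 to 5.11 in the H livers.

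In WAT *Fkbp5* was 9.20, 8.87, 9.22, 8.56 and 8.34 in the L-group and 10.21, 9.08, 8.65 and 8.59 in the H-group, and H12 stood above the other 8 rats. In BAT it was 6.21, 6.31, 6.11, 5.83 and 5.19 in the L-group and 7.40, 6.35, 5.38 and 5.23 in the H-group, again with H12 on top. The differences were 0.29 (SE 0.38, adjusted p = 0.917) and 0.16 (SE 0.49, adjusted p = 1) by limma. Without H12 they were -0.07 and -0.28. On the dimmer probe set the differences were 0.21 (SE 0.31) in WAT and 0.48 (SE 0.48) in BAT. There H12 was at 4.53 in BAT and the other rats lay between 2.30 and 2.56.

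*Tsc22d3*, also called Gilz, encodes a leucine zipper protein that carries part of the anti-inflammatory action of glucocorticoids. In the liver it was 10.13, 8.74, 9.02, 8.70 and 8.77 in the L-group, 9.86, 8.49, 9.07 and 8.73 in the M-group and 9.27, 9.01, 8.88 and 9.54 in the H-group. L1 and M6 stood above all other livers, of which H16 was the highest, and the rest of the L- and M-groups overlapped with the H-group. The difference of H from M was 0.14 (SE 0.32, adjusted p = 0.987) and of M from L -0.04 (SE 0.31, adjusted p = 1.0) by limma.

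In WAT *Tsc22d3* was 12.07, 11.24, 10.89, 10.24 and 10.55 in the L-group and 11.64, 10.96, 11.11 and 11.48 in the H-group. Rank products called it higher in H, at an FDR of 0.048, 1 of 7 members where 1.07% of genes were called higher. Limma gave 0.30 (SE 0.38, adjusted p = 0.907), the groups overlapped, and the rank products call was made in 2 of the 9 analyses that left out a rat, those without L1 or L2. In BAT the L rats gave 10.37, 9.57, 9.20, 8.72 and 8.71 and the H rats 9.93, 9.27, 9.30 and 9.08, a difference of 0.08 (SE 0.38) with the 4 H rats inside the L range.

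*Sgk1* encodes a kinase that both glucocorticoid and mineralocorticoid receptors induce and that acts on ion channels. In the liver it was 8.15, 8.27, 7.68, 8.19 and 8.0 in the L-group, 7.87, 8.54, 8.48 and 8.45 in the M-group and 8.27, 7.85, 7.84 and 8.13 in the H-group. M8, M9 and M10 lay above all other livers, and M6 lay low. The differences were 0.28 (SE 0.15, adjusted p = 1.0) for M from L and -0.31 (SE 0.16, adjusted p = 0.873) for H from M by limma. In WAT the L rats ran from 8.76 to 10.48, the highest being L1, and the H rats from 8.52 to 9.56.

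In BAT *Sgk1* gave the largest difference of any member in any comparison of its brighter probe set. It was 8.43, 6.95, 7.96, 8.17 and 7.75 in the L-group and 9.24, 8.50, 9.09 and 7.37 in the H-group. H12, H13 and H15 lay above all L rats, and H16 lay below all but L2. The difference was 0.70 (SE 0.46, 1.62-fold) with an adjusted p of 0.970 by limma, and rank products called *Sgk1* higher at an FDR of 0.025, 1 of 7 members where 0.886% of genes were called higher. The call was not made without L2, H12, H13 or H15, and with the skeletal muscle markers, which were high in H13 and H15, as a covariate the difference was 0.41. The part of the muscle RNA in it was not tested further.

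*Tat*, tyrosine aminotransferase, is a classic liver target of the receptor. In the liver it was 9.62, 8.67, 8.70, 9.16 and 8.64 in the L-group, 8.94, 9.04, 8.22 and 8.98 in the M-group and 8.10, 8.21, 9.26 and 9.03 in the H-group. The H livers fell into a low pair, H12 and H13, and a pair inside the L range. The mean declined from 8.96 over 8.80 to 8.65 with SDs of 0.43, 0.39 and 0.58, so that no neighbours in this order differed beyond their spread. In WAT the probe set was listed at 6.22 and in BAT at 2.29 on every array.

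**Figure D2:**
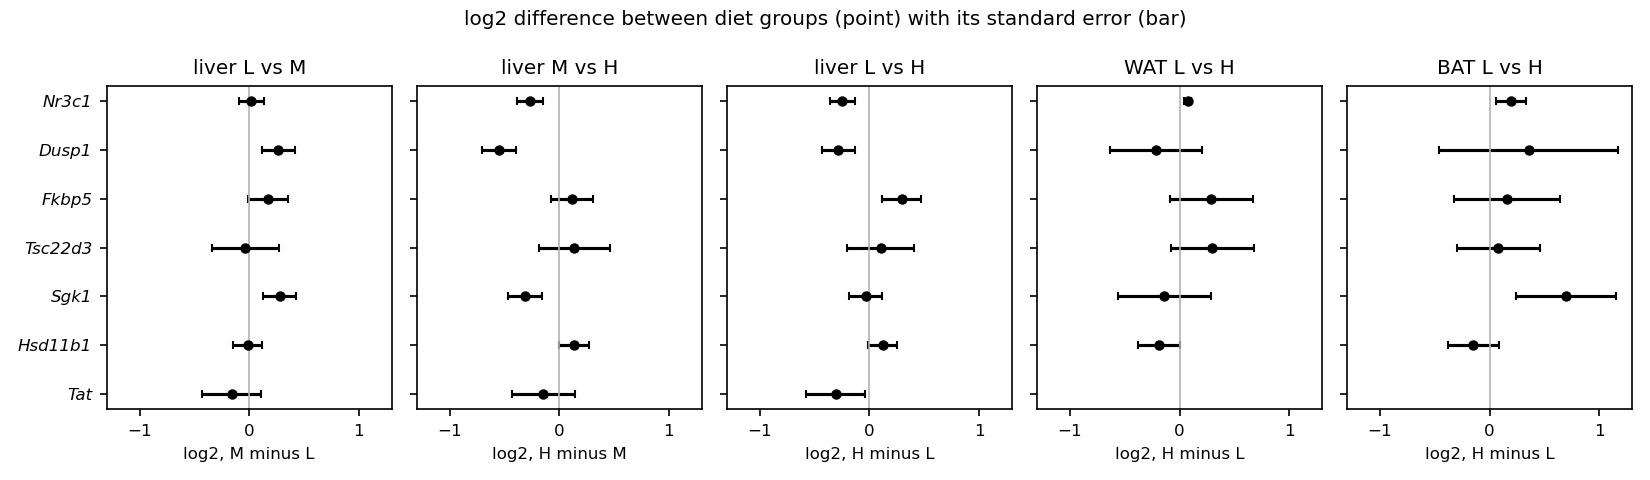
Log2 difference between diet groups (x axis, second group minus first) for each of the 7 genes on the brighter probe set, with limma's standard error as the bar, in the 5 comparisons. *Tat* is not drawn in WAT and BAT, where it held 1 value. The differences lie between -0.55 for *Dusp1* in liver M vs H and 0.70 for *Sgk1* in BAT, and the bars are wider in the adipose tissues than in the liver for every gene drawn there except *Nr3c1* in WAT.

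**Figure D3:**
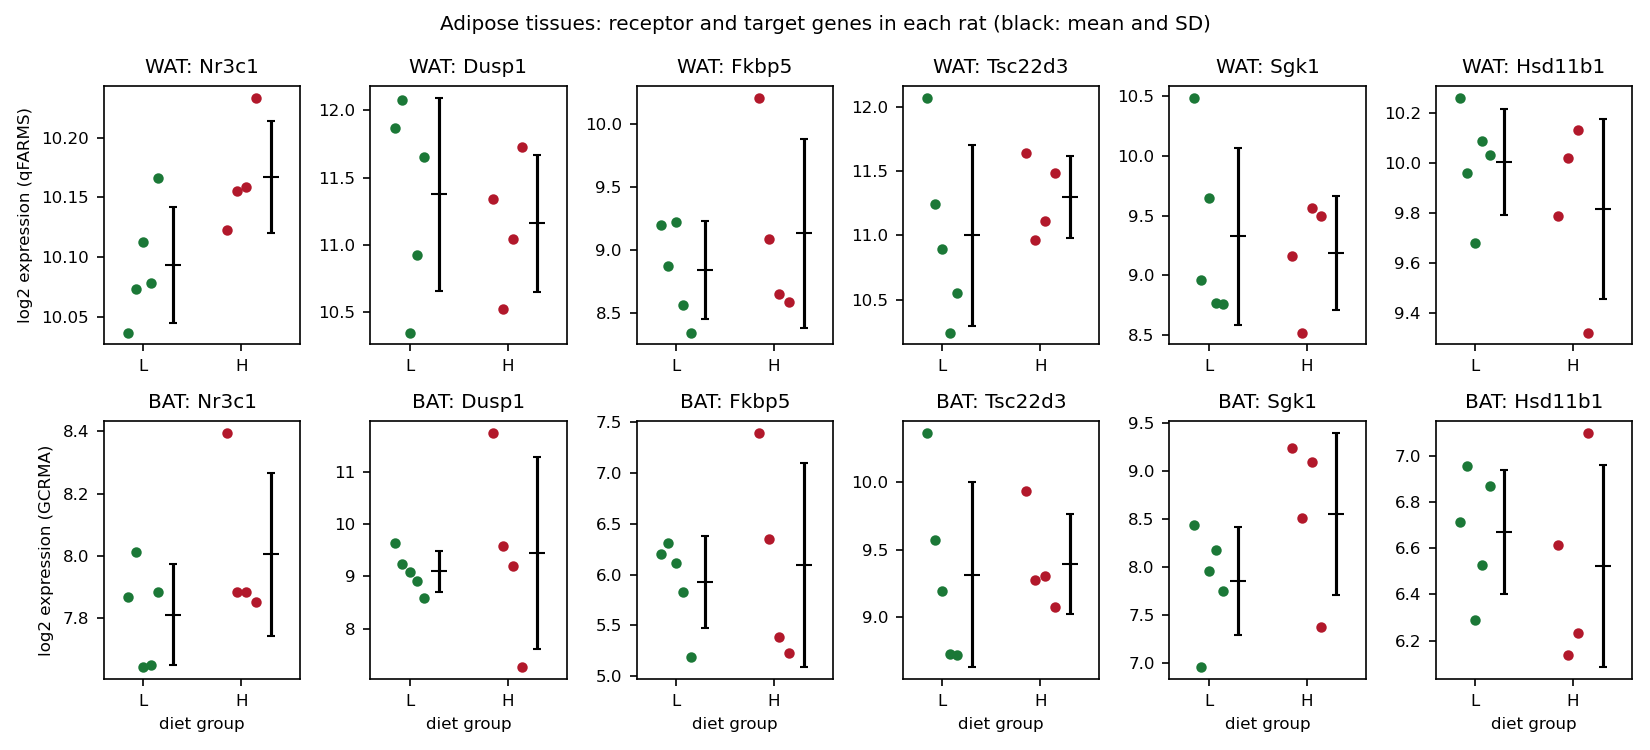
Log2 expression of 6 genes in WAT (top, qFARMS) and BAT (bottom, GCRMA) by diet group, 1 point for each rat ordered by rat number, with the mean and SD in black. In BAT the first H rat, H12, is the highest of all rats for *Nr3c1*, *Dusp1*, *Fkbp5* and *Sgk1*, and the first L rat, L1, is the highest for *Tsc22d3* in both tissues.

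The members were then compared within rats, to see whether a rat that was high for its diet in one tissue was high in another. Diet means were subtracted in each tissue, and p came from two-sided exact permutations of the 9 rats within diets. Of the 18 relations that could be computed, 6 genes in 3 pairs of tissues, 4 had an unadjusted p under 0.05, and all 4 were positive. Across all genes no relation passed an adjusted p of 0.05 in any pair of tissues, so each of the 4 is reported with an adjusted p over all genes that misses it.

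*Dusp1* was the closest between the liver and WAT. In order of rising liver value relative to diet, the rats ran L3, H13, H15, L4, H12, L1, L5, H16 and L2, and WAT gave nearly the same order, with L3 lowest and L2 highest. Pearson's r was 0.94 (exact permutation p = 0.000694) and Spearman's rho 0.97 (exact permutation p = 0.000694), with r = 0.90 without L2 and L3. Of the 3308 genes that vary in both tissues, 0.877% had an r at least this high, and the adjusted p over these genes was 0.164. On the dimmer probe set, compared after the data were seen, r was 0.50 (exact permutation p = 0.0653) and rho 0.73 (exact permutation p = 0.00208). There r was 0.30 without the 2 rats farthest from the median. BAT did not follow, with r = -0.14 against the liver and -0.10 against WAT.

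*Fkbp5* was closest between the adipose tissues. H12 was the highest and H16 the lowest relative to diet in both, and L5 and H15 were low in both. The correlation was r = 0.94 (exact permutation p = 0.00347) and rho = 0.88 (exact permutation p = 0.00764), with r = 0.84 without H12 and H16. An r this high was found in 0.740% of 2974 genes, and the adjusted p over these genes was 0.269. The dimmer probe set gave r = 0.85 (exact permutation p = 0.0264) and rho = 0.82 (exact permutation p = 0.00278), although in BAT it left the floor in few rats. Its r was 0.55 without the 2 rats farthest from the median. Liver *Fkbp5* was related to neither adipose tissue, with r = 0.03 to WAT and 0.02 to BAT.

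*Tsc22d3* had a positive r in all pairs of tissues, and an unadjusted p under 0.05 between WAT and BAT and between the liver and WAT. Between WAT and BAT r was 0.91 (exact permutation p = 0.00417) and rho 0.87 (exact permutation p = 0.016), with r = 0.75 without L1 and L4. The share of genes at or above it was 1.21% and the adjusted p over all genes 0.269. Between the liver and WAT r was 0.85 (exact permutation p = 0.0177, adjusted p over all genes 0.318) and rho 0.70 (exact permutation p = 0.0594). That relation rested largely on L1, the rat with the highest *Tsc22d3* in all 3 tissues: r was 0.59 without L1 and H16, and 0.52 (exact permutation p = 0.175) without L1 alone. Between the liver and BAT r was 0.71 (exact permutation p = 0.0861) and rho 0.48 (exact permutation p = 0.249).

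**Figure D4:**
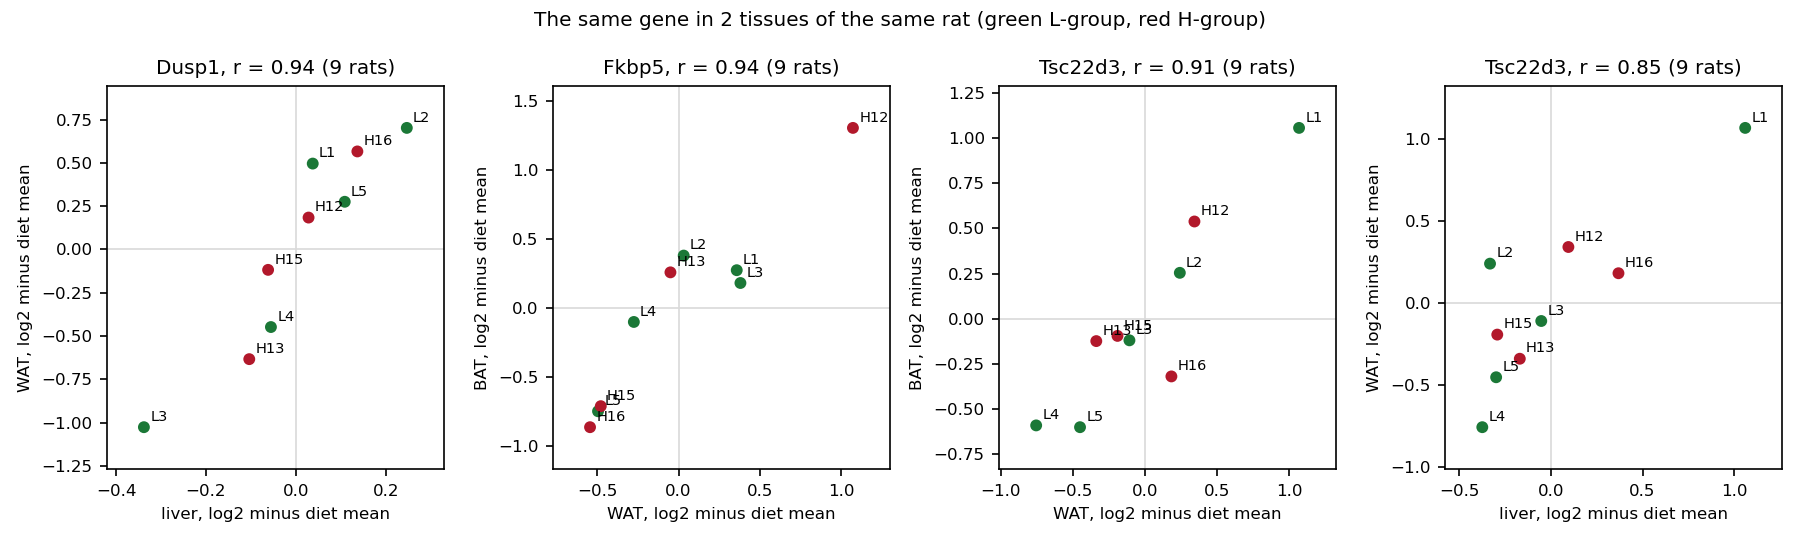
The same gene in a pair of tissues of the same rat, each value as log2 minus the mean of its diet group in that tissue, with the 9 rats labelled (green L-group, red H-group). L3 and L2 mark the ends for *Dusp1*, H12 stands alone at the top for *Fkbp5*, and L1 stands alone at the top for *Tsc22d3*.

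The receptor itself, *Sgk1* and *Hsd11b1* gave no relation with an unadjusted p under 0.05. For *Nr3c1* r was 0.19 between the liver and WAT, -0.61 between the liver and BAT and -0.39 between WAT and BAT, and the smallest of the 3 exact permutation p was 0.0965. For *Sgk1* r lay between -0.16 and 0.24. For *Hsd11b1* it was 0.55, 0.35 and -0.49 in the same order of tissues. A p above the threshold over 9 rats does not show that these genes varied independently in the tissues.

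The count of positive relations can be read against all genes. An unadjusted exact permutation p under 0.05 with a positive r was reached by 2 of 6 members between the liver and WAT, where 9.13% of genes reached it. It was reached by 0 of 6 between the liver and BAT (4.14% of genes) and by 2 of 6 between WAT and BAT (8.04% of genes). The median r over all genes was 0.16, 0.07 and 0.15 in these pairs, so that same-rat values leaned to the positive side in general.

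Other genes of the pathway were taken from 4 lists, chosen with earlier results of these data known. Of 24 other genes known to be induced by glucocorticoids, 22 were on the array, and 6 of the 17 that varied in both the liver and WAT reached that p with a positive r (*Bcl6*, *Cebpd*, *Ddit4*, *Errfi1*, *Nfkbia* and *Per1*). Between the liver and BAT 6 of 19 did so, and 3 of 17 between WAT and BAT. *Ddit4*, an inhibitor of the growth kinase mTOR, *Nfkbia*, which holds NF-kappaB in the cytoplasm, and *Per1*, a clock gene with a receptor site, were among them in all 3 pairs. *Nfkbia* had r = 0.97, 0.93 and 0.95 in order of pairs, with exact permutation p of 0.00938, 0.00938 and 0.00104, and the adjusted p over all genes were 0.271, 0.702 and 0.258. These genes were singled out after their values were seen.

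Of the chaperones and cochaperones of the receptor, 4 of 8 between the liver and WAT, 4 of 9 between the liver and BAT and 4 of 8 between WAT and BAT reached that p with a positive r, beside 9.13, 4.14 and 8.04% of all genes. None passed the adjustment over all genes. The median r of this list was 0.79, 0.61 and 0.74. *Stip1*, which hands client proteins from Hsp70 to Hsp90, was among them in every pair with r = 0.92, 0.84 and 0.90, and so was the Hsp70 cochaperone *Dnaja1* with r = 0.82, 0.78 and 0.96, both singled out after their values were seen. The 11 coregulators of the receptor that could be measured in the liver and BAT counted 0 positive relations, with a median r of 0.12. In the list of corticosteroid carriage and metabolism, 1 of 4 genes reached the p between the liver and BAT and it was negative (*H6pd*, r = -0.90), as for 1.47% of all genes.

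**Figure D5:**
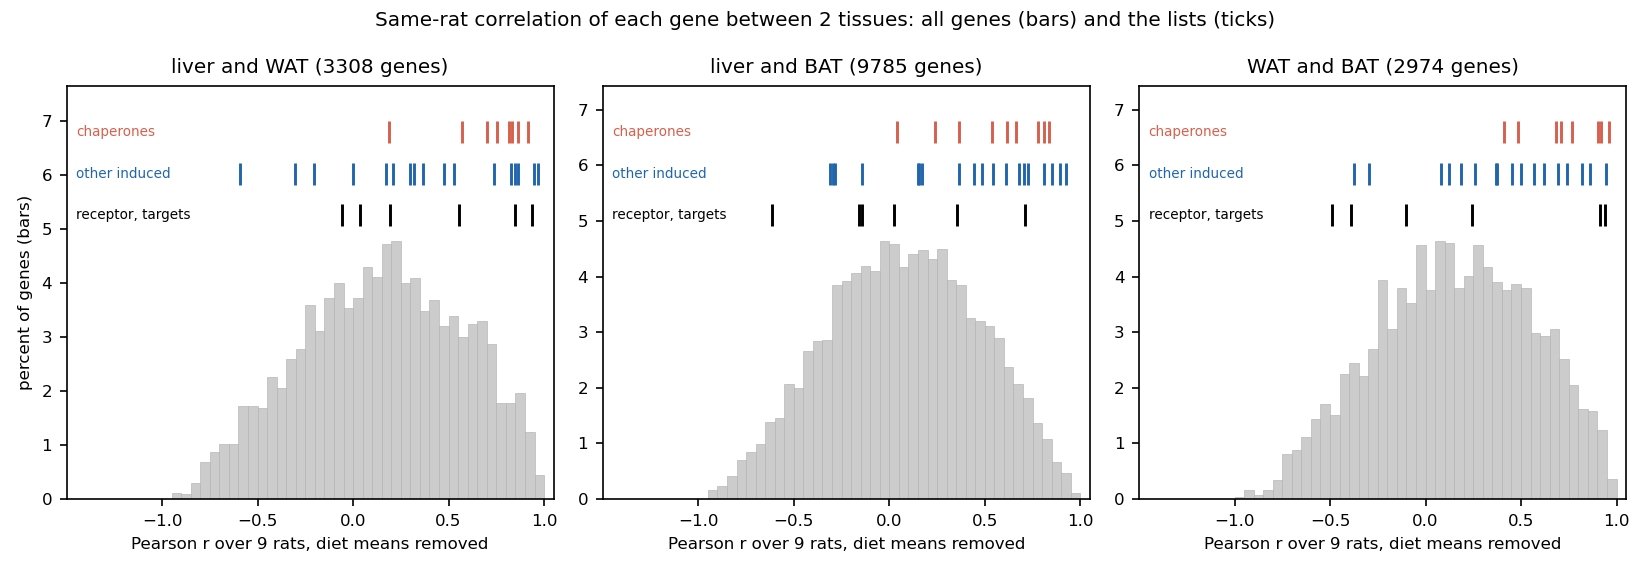
Distribution of the same-rat Pearson r over 9 rats, with diet means removed, for all genes that vary in both tissues (grey bars, percent of genes in bins of r), and for the members and 2 lists (ticks). The chaperone ticks lie on the positive side in all 3 panels, while the members spread from -0.61 to 0.94.

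Within the liver the members were compared with each other over 13 rats in 21 pairs, again with diet means removed. There were 2 pairs with an unadjusted p under 0.05, and neither passed an adjustment over the 21 pairs. The share of all gene pairs that reach this p was not computed, so the count is a description. *Dusp1* and *Hsd11b1* had r = 0.75 (two-sided exact permutation p = 0.00815) and rho = 0.62 (permutation p = 0.0268), and r was 0.43 without L3 and M8. *Fkbp5* and *Tsc22d3* had r = 0.66 (exact permutation p = 0.0494) and rho = 0.62 (permutation p = 0.0812), and r was 0.41 without M6 and M8. An r at least as high was found with *Dusp1* for 0.570% and with *Hsd11b1* for 0.324% of the other genes, and with *Fkbp5* for 1.23% and with *Tsc22d3* for 1.39%. *Nr3c1* had no pair with a p under 0.05, its r with the other 6 genes running from -0.58 with *Fkbp5* to 0.37 with *Sgk1*.

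Genes whose liver pattern was most like that of a member were ranked by Pearson's r over the 13 livers with the diet means left in, among 9252 genes above the median level, and are extremes picked from that ranking. For *Nr3c1* they were *Onecut2* (r = 0.94), a liver transcription factor, *Slc17a2* (0.92), *Zranb1* (0.91), *Prkaa2* (0.87), a catalytic subunit of AMP-activated kinase, and *Otud6b* (0.87). The most opposite were the folate carrier *Slc19a1* (-0.94), *Tmem120a* (-0.94) and *Spp2* (-0.91). For *Dusp1* they were *Arhgef3* (0.94), *Zfp455l1* (0.85), *Cpeb4* (0.85), *Atxn7l1* (0.84) and *LOC100912041* (0.83), against *Traf3ip1* (-0.87), *Calm2* (-0.86) and *Cherp* (-0.86). For *Fkbp5* they were *Ctc1* (0.86), *Plau* (0.84), *Usp20* (0.83), *Tyw1* (0.82) and *Thoc5* (0.82), against the estrogen-related receptor *Esrra* (-0.85), *Zyg11b* (-0.84) and *Epm2aip1* (-0.83).

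By diet, no gene of the 4 pathway lists passed limma in any comparison. An unadjusted limma p under 0.05 was reached by 0 of 22 other induced genes in liver L vs M, 2 of 22 in liver M vs H, 7 of 22 in liver L vs H, 3 of 17 in WAT and 2 of 19 in BAT. The shares of all genes in the same order were 3.69, 6.39, 9.24, 6.44 and 6.56%. Because the lists were chosen with earlier results of these data known, the counts are a description. So are the liver L vs H values of the genes named below. The chaperones counted 0, 2 and 2 of 9 in the liver comparisons, 0 of 8 in WAT and 1 of 9 in BAT. The coregulators counted 0, 1 and 0 of 11, 0 of 2 and 2 of 11, and the genes of carriage and metabolism 0, 3 and 4 of 8, 1 of 1 and 1 of 4. Among the other induced genes *Bcl6*, a transcriptional repressor, had the smallest limma p in liver L vs H. It ran from 6.84 to 9.13 in the L livers, from 6.86 to 8.75 in the M livers and from 9.49 to 10.1 in the H livers, so that H lay above both. The difference of H from L was 2.0 (SE 0.43, adjusted p = 0.177 by limma). In WAT it was 1.72 (SE 0.65, adjusted p = 0.774) and in BAT 1.12 (SE 0.39, adjusted p = 0.963), with overlapping groups, and rank products called *Bcl6* higher in H in each tissue.

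The metallothionein *Mt2A* was higher in H on average by 0.92 (SE 0.23, adjusted p = 0.232) in the liver, with no overlap, and by 0.96 (SE 0.31, adjusted p = 0.682) in WAT. *Angptl4*, an inhibitor of lipoprotein lipase, went the other way, with -0.87 (SE 0.30, adjusted p = 0.428) in the liver and -0.54 (SE 0.23, adjusted p = 0.970) in BAT. Rank products called 3 of the 22 other induced genes higher and 2 lower in liver L vs H, beside 0.893 and 0.767% of all genes. It called 4 higher and 3 lower of 17 in WAT, beside 1.07 and 1.41%, and 2 higher and 3 lower of 19 in BAT, beside 0.886 and 1.84%. The median differences of this list were -0.01, 0.06 and -0.06, beside medians of 0.00 over all genes. In WAT and BAT the list counts left out flat and floor genes, while the shares and medians over all genes included them. These are therefore not like for like, and the share among varying genes alone was not computed.

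The remaining lists also held differences, none of which passed limma's adjusted p. In the list of corticosteroid carriage and metabolism, rank products called *Akr1c14*, a hydroxysteroid dehydrogenase, higher in WAT (0.61, SE 0.15, adjusted p = 0.623 by limma) and lower in BAT (-0.46, SE 0.08, adjusted p = 0.402), where the groups did not overlap. Different probe sets stood for the gene in these tissues, so the directions are not comparable. In the liver the mineralocorticoid receptor *Nr3c2* differed by -0.39 (SE 0.13, adjusted p = 0.397) and *Hsd11b2*, which inactivates the hormone, by -0.32 (SE 0.11, adjusted p = 0.428) in H from L. *Abcb1a* differed by 0.75 (SE 0.30, adjusted p = 0.488 by limma) in the same comparison, and rank products called it higher. Among the coregulators, rank products called *Nr0b2* lower in liver L vs M (-0.33, SE 0.64) and higher in BAT (0.81, SE 0.28). Of the chaperones it called *Dnaja1* (-0.51, SE 0.50) and *Dnajb1* (-0.40, SE 0.39) lower in WAT. Among the chaperones *Stip1* was 7.13 ± 0.14 in the M livers and 7.56 ± 0.09 in the H livers without overlap (0.42, SE 0.11, adjusted p = 0.527). Whether any diet difference varied between tissues was not tested.

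Individual rats recurred at the ends. In BAT H12 was the highest of 9 rats in 4 of 6 members, *Nr3c1*, *Dusp1*, *Fkbp5* and *Sgk1*, and in WAT it was the highest in *Fkbp5*. In the liver the same rat was the lowest of 13 in *Nr3c1* and *Tat*. L1 was the highest in *Tsc22d3* in all 3 tissues, in *Sgk1* and *Hsd11b1* in WAT and in *Tat* in the liver. Both rats were singled out after their values were seen. The share of all genes for which they were the highest or the lowest was not computed. These counts therefore do not show a trait of the members. Over all probe sets the mean correlation of H12 with the other BAT arrays was 0.995, within the range of 0.992 to 0.996 over the 9 arrays, and its mean of the skeletal muscle markers was 3.35. H12 had the highest mean of the 7 measured macrophage markers in BAT, 5.47 against 4.85 to 5.09 in the L-group. The lowest H rat was at 4.98 and the H median was 5.10. Of these markers 1 was at the floor on all arrays, and *Cd163* (2.30 to 2.46) and *Adgre1* (2.75 to 2.83) lay near it. H12 also had the highest mean of the 4 measured endothelial markers, 8.36 against 8.0 to 8.22 in the L-group. The part of these cell types in the values of H12 was not tested.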

How the data were processed

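The authors deposited log2 values made from Affymetrix Rat Genome 230 2.0 arrays with RMA for the liver, qFARMS for WAT and GCRMA for BAT, each tissue on its own, and these log2 values entered without change, 31042 probe sets in all once 57 controls were dropped. Because each method handles weak probes in its own way, low values were flat in WAT and lay at a floor in BAT. Of the probe sets, 20826 carried 1 symbol, 436 several and 9780 none. Each gene was represented by its brightest probe set in the tissue.

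Diets were compared with limma 3.58.1 in R 4.3.3 over all probe sets, with Benjamini-Hochberg adjustment, and with rank products in Python 3.11.15 (100 permutations, FDR under 0.05, each direction separately, 50 permutations where a rat was left out). All 13 livers, 9 WAT or 9 BAT arrays entered a fit. Correlations within rats used exact permutations within diets (2880 for 9 rats, 69120 for 13 livers). Each rat was 1 sample. The number of arrays limits the precision. Both tests and the correlations were tested on simulated data with few changed probe sets. There most rank products calls for L vs H were false in each tissue and few limma calls were. The members and gene lists were chosen with earlier results of these data known, so no p adjusted over the members alone is given. Every probe set of a member was reported. Of a list, at most 3 genes were named for a comparison, ranked by limma's p, and a few others, named as such, for their correlations or rank products. Alternatives were array centring, another quantile normalization, trended and robust fits, array weights, a filter on dim probe sets, the mean of all probe sets, the compared groups alone, varying probe sets alone, the muscle covariate, an FDR of 0.01, rank correlation, no subtraction of diet means, and each rat left out.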

Additional observations from a re-analysis of the deposited data

Results flagged for a closer look

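Within each diet group of 4 or 5 rats, the gap between an extreme rat and its neighbour was divided by the range of the group, for every informative probe set of the 7 genes. Chance flags about 1 in 20 groups, and 8 of 64 groups exceeded the critical value of Dixon's test. In BAT rat H12 stood above the other H rats in *Nr3c1* (8.40 against 7.88, a ratio of 0.939) and on the dimmer *Fkbp5* probe set (4.53 against 2.30, 0.999), and the brighter *Fkbp5* probe set had the same rat on top. In the liver rat L1 stood above the L-group in *Tsc22d3* (10.13 against 9.02, 0.776).

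On the dimmer *Dusp1* probe set in the liver rat H16 stood above the H-group (7.49 against 6.67, 0.913) and rat M8 below the M-group (7.24 against 7.94, 0.838). Further M livers that stood low were M6 in *Sgk1* (7.87 against 8.45, 0.863) and M9 in *Tat* (8.22 against 8.94, 0.881). The last was L3 on the dimmer *Nr3c1* probe set in BAT, with a ratio of 1 at 2.6327 against 2.6335, both near the floor. The cause of these values was not tested.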

How the results depend on the processing

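No paired analysis was possible because the diet groups compared shared no rat number and the tissues were never in 1 fit. No alternative gave a member that passed limma in liver L vs M, liver M vs H, WAT or BAT. At an FDR of 0.01 rank products called 0 members in liver M vs H, WAT and BAT, from 1 each. With a rat left out its count ran from 0 to 1 in liver M vs H, liver L vs H and WAT, and from 0 to 2 in BAT. The count of liver pairs with an unadjusted p under 0.05 was 1 with Spearman's rho, from 2, and 1 to 3 with a rat left out, and that between tissues was 3 to 5, from 4.

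Small differences turned sign. In liver L vs M *Nr3c1* was -0.00600 with array weights and -0.0271 with the mean of its probe sets, and *Hsd11b1* was 0.00694 after another quantile normalization. *Hsd11b1* in BAT was 0.16 with the muscle covariate. With a rat left out, liver L vs M ran from -0.0765 to 0.114 for *Nr3c1*, from -0.0242 to 0.321 for *Fkbp5*, from -0.31 to 0.23 for *Tsc22d3*, from -0.119 to 0.0726 for *Hsd11b1* and from -0.243 to 0.0328 for *Tat*. Liver M vs H ran from -0.0274 to 0.317 for *Fkbp5*, from -0.0436 to 0.412 for *Tsc22d3* and from -0.351 to 0.0367 for *Tat*, and liver L vs H from -0.0200 to 0.368 for *Tsc22d3* and from -0.130 to 0.0259 for *Sgk1*. WAT ran from -0.0659 to 0.473 for *Fkbp5* and from -0.28 to 0.15 for *Sgk1*, and BAT from -0.41 to 1.09 for *Dusp1*, from -0.28 to 0.45 for *Fkbp5* and from -0.10 to 0.34 for *Tsc22d3*. The cause was not tested. In WAT and BAT, flat or floor values limit what can be seen of weak genes.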
